A study of Mus musculus with 4 samples.

Results

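Costimulatory and coinhibitory ligands were followed across 4 pools of sorted medullary thymic epithelial cells (mTECs), the thymic epithelium that displays tissue-restricted antigens to developing T cells. The 10 genes were chosen by name from the 23366 gene symbols counted, and all 10 had a row: the B7 family ligands Cd80, Cd86 and Icosl, the PD-1 ligands Cd274 and Pdcd1lg2, the B7-H3 gene Cd276, the TNF family ligands Tnfsf4, Tnfsf9 and Cd70, and the adhesion ligand Icam1. RNA came from wild-type C57BL/6 mice aged 6 to 8 weeks, with 2 pools of females and 2 pools of males and 10 mice in each pool, and the labels name no treatment. Cells were sorted as negative for propidium iodide and CD45, positive for MHCII and low for Ly51, and cDNA was made from polyA RNA with a kit for very small inputs. The labels number the pools 1 and 2 within each sex and do not say what the number stands for.

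A T cell that meets its antigen receives a second set of signals from ligands on the presenting cell. CD80 and CD86 bind the activating receptor CD28 and the inhibitory receptor CTLA-4, ICOS ligand binds ICOS, and PD-L1 and PD-L2, the products of Cd274 and Pdcd1lg2, bind the inhibitory receptor PD-1. OX40 ligand (Tnfsf4), 4-1BB ligand (Tnfsf9) and CD70 bind members of the TNF receptor family, and ICAM-1 binds the integrin LFA-1 and holds the cells together. In the thymic medulla such ligands are carried by mTECs, dendritic cells and B cells, and the CD80 and CD86 signal is known for its part in the formation of regulatory T cells.

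The stretch of 250 bases before the start site was read for the 6 members held by the RefSeq promoter table of GRCm38.p6, namely Cd80, Icosl, Cd274, Pdcd1lg2, Cd276 and Icam1. Cd86, Tnfsf4, Tnfsf9 and Cd70 had no entry. Icam1, Cd80 and Cd276 are shown because they were the members in which one of the searched motifs was present, and because they stand at the top, in the lower part and at the bottom of the order of levels described next. Capitals mark the matches, each sequence runs 5′ to 3′ on the strand of its gene, and the windows are chr9:21015690-21015939 on the + strand for Icam1, chr16:38458683-38458932 on the + strand for Cd80 and chr9:58555034-58555283 on the - strand for Cd276.
Icam1: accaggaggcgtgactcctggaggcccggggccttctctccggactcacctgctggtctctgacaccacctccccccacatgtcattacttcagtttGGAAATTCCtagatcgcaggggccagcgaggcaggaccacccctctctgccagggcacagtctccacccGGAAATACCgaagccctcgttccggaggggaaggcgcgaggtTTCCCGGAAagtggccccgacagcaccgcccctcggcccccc
Cd80: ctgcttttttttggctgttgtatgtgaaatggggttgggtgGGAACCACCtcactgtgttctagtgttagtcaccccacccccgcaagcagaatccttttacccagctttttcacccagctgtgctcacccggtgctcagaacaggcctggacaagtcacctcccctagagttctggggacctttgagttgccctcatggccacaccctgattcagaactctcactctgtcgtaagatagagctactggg
Cd276: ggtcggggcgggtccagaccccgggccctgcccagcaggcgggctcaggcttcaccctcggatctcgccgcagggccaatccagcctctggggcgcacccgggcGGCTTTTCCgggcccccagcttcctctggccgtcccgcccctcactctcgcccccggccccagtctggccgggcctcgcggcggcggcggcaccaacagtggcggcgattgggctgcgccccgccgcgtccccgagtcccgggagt
The Icam1 window held 2 matches to a kappaB-like motif (GGNNNTTCC, searched on both strands), with their first bases at -153 and -84 from the start site, and 1 match to a GAS-like motif (TTCNNNGAA) at -42. Cd80 held 1 kappaB-like match at -209, and Cd276 held 1 at -146. Matches did not overlap each other, and no window of the 6 held a TATA-like motif (TATAAA). Among all 32851 promoter windows of that length, 15.7% held the kappaB-like motif, 7.0% the GAS-like motif and 12.4% the TATA-like motif. A match describes these letters and not a site of binding, and kappaB-like matches were found both in Icam1 and in Cd276, at the 2 ends of the order of levels.

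Reads counted on genes numbered from 1976272 to 7103627 per pool, of which the 10 ligands took 4836 and 2675 in female pools 1 and 2 and 9396 and 2905 in male pools 1 and 2. These are 0.138%, 0.135%, 0.132% and 0.0869% of the gene reads. Libraries were scaled with TMM, which corrects for composition, and male pool 2 stood apart with a factor of 0.780 against 1.03 to 1.18 in the other pools. The values given are normalized CPM, which are counts rescaled by library size and TMM factor, unless they are called per-length levels. Male pools held 958 and 189 reads on Y-linked genes and female pools 1 each. Xist had 349 and 111 reads in female pools 1 and 2, against 7 and 18 in male pools 1 and 2. The sex labels held by both counts, though the male pools were not free of Xist reads. The gate was not seen cleanly in the RNA. The MHCII genes H2-Ab1 and H2-Aa were high, at 26961.5 and 15140.9 normalized CPM. Enpep, the gene of Ly51, had 1, 0, 1 and 0 reads in female pools 1 and 2 and male pools 1 and 2. Ptprc, which encodes CD45, stood at 246 ± 56.8 normalized CPM (SD, n = 4 pools), and the B cell gene Cd79a at 1823 and the myeloid gene Lyz2 at 1931, against 24.9 ± 6.32 for Aire and 43.8 for Epcam. Levels within a list varied, as the epithelial gene Spint2 stood at 280 and the B cell gene Pax5 at 2.25. The mTEC marker Ccl21a had 0 counted reads in all pools. Whether its reads lay among those not assigned to a gene was not tested, so the 0 does not show its absence. In bulk RNA, fewer cells of a type and less RNA per cell cannot be told apart, so the levels are those of the sorted mixture.

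Levels of different genes were set in order per length, as normalized CPM divided by the summed exonic kilobases of the NCBIM37 annotation, the mm9 assembly. Positions of whole genes are also of that build, while the promoter windows are of GRCm38.p6. Icam1, on chr9:20820404-20833241, had the highest per-length level, 223 ± 42.6 (SD, n = 4 pools), and Tnfsf9 followed with 120 ± 24.5. Cd86 was the third with 75.6 ± 6.09. These 3 genes kept their places in all 4 pools. At the other end, Cd80 reached 11.6 ± 1.88 and Tnfsf4 5.13 ± 2.45, and Cd276 was last at 0.190 ± 0.0960. Cd80, Tnfsf4 and Cd276 also held places 8, 9 and 10 in every pool.

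The middle of the order was not settled. Cd70 had a mean per-length level of 31.0 ± 17.6, but it was above the next gene, Icosl, in only 2 of 4 pools, and its place ran from 4 to 7. Icosl (20.0 ± 3.62), Pdcd1lg2 (19.3 ± 1.74) and Cd274 (18.0 ± 1.82) followed closely, and neighbours in this order differed by less than the SD of either gene. Icosl was above Pdcd1lg2 in 3 of 4 pools, and Pdcd1lg2 was above Cd274 in 2 of 4. Among the 10865 genes that passed the filter on low counts, by normalized CPM and without regard to length, Icam1 stood at percentile 97.7, Cd86 at 95.1 and Tnfsf9 at 90.4, while Tnfsf4 stood at 23.1.

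**Figure D1:**
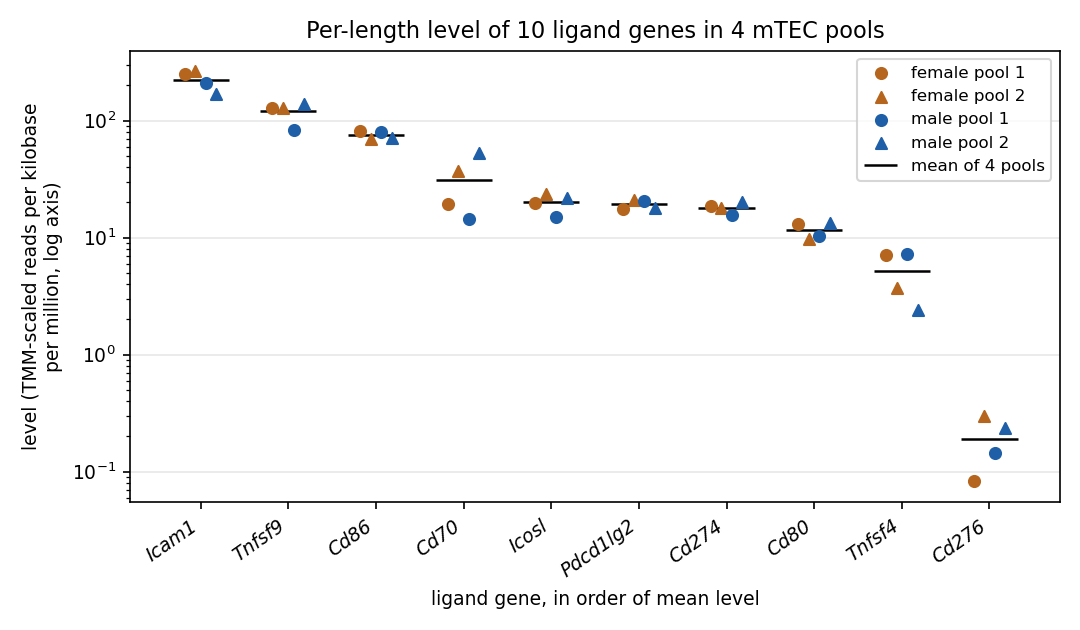
Per-length level of the 10 ligand genes (log axis, TMM-scaled CPM per kilobase of exon) in the 4 pools, with circles for pool 1, triangles for pool 2, orange for female, blue for male and a bar for the mean of 4 pools. Icam1 is highest at 223 and Cd276 lowest at 0.190, and the points of Cd70 and Tnfsf4 spread farther apart than those of the other tested ligands, with pool 2 above pool 1 for Cd70 and below it for Tnfsf4.

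The B7 ligands of CD28 and CTLA-4 were present at unequal levels. Cd86, on chr16:36603955-36666167, had 307 and 263 normalized CPM in female pools 1 and 2 and 302 and 267 in male pools 1 and 2, so that its 4 values lay within a factor of 1.17. Cd80, on chr16:38459013-38495821, had 38.3 and 28.2 in the female pools, against 30.2 and 38.9 in the male pools. The 2 genes lie on the same chromosome with 25 coding genes between them. Per length, Cd86 was 6.22 and 7.24 times Cd80 in the female pools, against 7.74 and 5.32 times Cd80 in the male pools, and the length of the longest transcript in place of all exonic bases raises both genes (Cd86 to 111 and Cd80 to 15.04) without changing which is higher. Icosl, the ligand of ICOS on chr10:77532105-77546000, had 56.0 and 66.8 normalized CPM in the female pools, against 42.9 and 61.6 in the male pools, with both pools numbered 2 above both pools numbered 1.

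The PD-1 ligands are neighbours, with Cd274 on chr19:29441945-29462585 and Pdcd1lg2 on chr19:29485409-29545647, 22823 bases apart and 0 coding genes between them. Cd274, the gene of PD-L1, had 67.7 and 64.3 normalized CPM in the female pools, against 56.8 and 72.4 in the male pools. Pdcd1lg2, the gene of PD-L2, had 28.8 and 34.6 in the female pools, against 33.6 and 29.6 in the male pools. Neither gene separated the sexes or the pool numbers. Per length the pair was close to parity, with ratios of Cd274 to Pdcd1lg2 of 1.07 and 0.843 in the female pools, against 0.768 and 1.11 in the male pools.

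Cd276, the gene of B7-H3 on chr9:58372107-58402939, was at the limit of detection. It had 1 and 2 reads in the female pools, against 4 and 2 in the male pools, and it was the 1 member of 10 that did not pass the filter. A count of 0 allows up to 3 reads, or 0.815, 1.48, 0.358 and 1.16 normalized CPM in female pools 1 and 2 and male pools 1 and 2, and the 4 reads of male pool 1 have an exact Poisson 95% interval of 0.130 to 1.22 normalized CPM. Such limits and intervals cover counting error only. No fold is given for Cd276, because its levels in both sexes were at or near that limit.

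The TNF family ligands spread most. Tnfsf9, which gives the 4-1BB signal, had 157 and 158 normalized CPM in the female pools, against 103 and 171 in the male pools, with male pool 1 as the low value. Cd70, the ligand of CD27, had 16.3 and 31.2 in the female pools, against 12.2 and 44.7 in the male pools, so that pools numbered 2 were high in each sex. Tnfsf4, the OX40 ligand, went the other way with 11.4 and 5.94 in the female pools, against 11.6 and 3.85 in the male pools. The pool values of Tnfsf4 rest on 42, 12, 97 and 10 reads in that order, and those of Cd70 on 60, 63, 102 and 116. Tnfsf9 (chr17:57244808-57247180) and Cd70 (chr17:57285420-57289200) are neighbours with 38239 bases between them, yet the per-length level of Tnfsf9 was 6.61 and 3.47 times that of Cd70 in the female pools, against 5.79 and 2.62 times in the male pools.

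Over all 4 pools the highest value divided by the lowest had a median of 1.56 for the 9 tested members and 1.77 for the 10850 tested genes with reads in every pool. Of the tested members, 7 lay between 1.17 and 1.66, all below that second median. They stood at percentiles 60.1 to 97.7 of normalized CPM among the genes tested. The median was not matched for level, and counting error is larger for low counts. The values thus do not show that these 7 were steadier than genes of like level. Cd70 (3.67) and Tnfsf4 (3.01) stood above the median of all genes. The per-length ratio of Cd70 to Tnfsf4 therefore ran from 1.99 in male pool 1 and 2.71 in female pool 1 to 9.96 in female pool 2 and 22.0 in male pool 2.

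The study compared mTECs of the 2 sexes, and no ligand passed the test of that comparison. Males were set against females by edgeR's quasi-likelihood test on the counts with Benjamini-Hochberg adjustment over all 10865 genes tested, which passed 0 genes at an adjusted p under 0.05 (0%) and 48 at an unadjusted p under 0.05 (0.442%). It did not pass the Y-linked gene Ddx3y, with 0 reads in both female pools and 445 and 89 in male pools 1 and 2. The adjusted p of Ddx3y in this quasi-likelihood test was 0.186, as was that of the Y-linked Eif2s3y. The test thus missed plain differences between the sexes. DESeq2 passed 3 genes and edgeR's exact test 8, with 0 members among them. Of the 9 members tested, 0 passed and 0 had an unadjusted p under 0.05, and 3 log2 fold changes were positive and 6 negative, with a median of -0.04 beside 0.03 for all genes tested. Permuting 2 pools against 2 cannot give a two-sided exact p under 0.333.

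Icam1 had the largest difference between the sexes among the members. Its 4 values were 631 and 671 normalized CPM in the female pools, against 530 and 429 in the male pools, and it was the 1 member whose male and female pools did not overlap, against 21.2% of all genes tested. The female mean was 651 ± 28.01 and the male mean 480 ± 71.6 (SD, n = 2 pools of each sex). The log2 fold change, male over female, was -0.44 with a standard error of 0.41, a 95% interval of -1.41 to 0.53 and an adjusted p of 1 in edgeR's quasi-likelihood test. The difference between the means was larger than the gap between the pools of either sex, but with 2 pools per sex the interval includes 0. It ran from -0.60 to -0.28 when single pools were left out. Of the 7 B cell markers tested, 7 also had negative log2 fold changes between the sexes (median -0.28, 0 passed), and their part in the Icam1 values was not tested.

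For the other ligands the sexes overlapped. Cd80 averaged 33.3 ± 7.16 normalized CPM in females against 34.6 ± 6.12 in males, and its log2 fold change of 0.04 had an interval of -0.75 to 0.83. Cd86 averaged 285 ± 31.2 and 284 ± 24.6, with a log2 fold change of -0.01 and an interval of -0.91 to 0.89. The intervals thus still allow differences of nearly 2-fold in either direction for these genes, and the missed threshold does not show equal levels. Cd274 (-0.04), Pdcd1lg2 (0.00), Icosl (-0.24) and Tnfsf9 (-0.20) had log2 fold changes between the sexes of less than their standard errors of 0.31 to 0.39. For Cd70 and Tnfsf4 the sex comparison was the least precise, since the pools of a sex differed most. Cd70 had 23.7 ± 10.5 in females and 28.4 ± 23.0 in males, with an interval of the log2 fold change from -1.30 to 1.78, and that of Tnfsf4 ran from -1.61 to 1.34. Direction between the sexes was not stable for Cd80, Cd86, Icosl, Cd274, Pdcd1lg2, Tnfsf4, Tnfsf9 and Cd70, as leaving out a pool turned the sign of each.

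**Figure D2:**
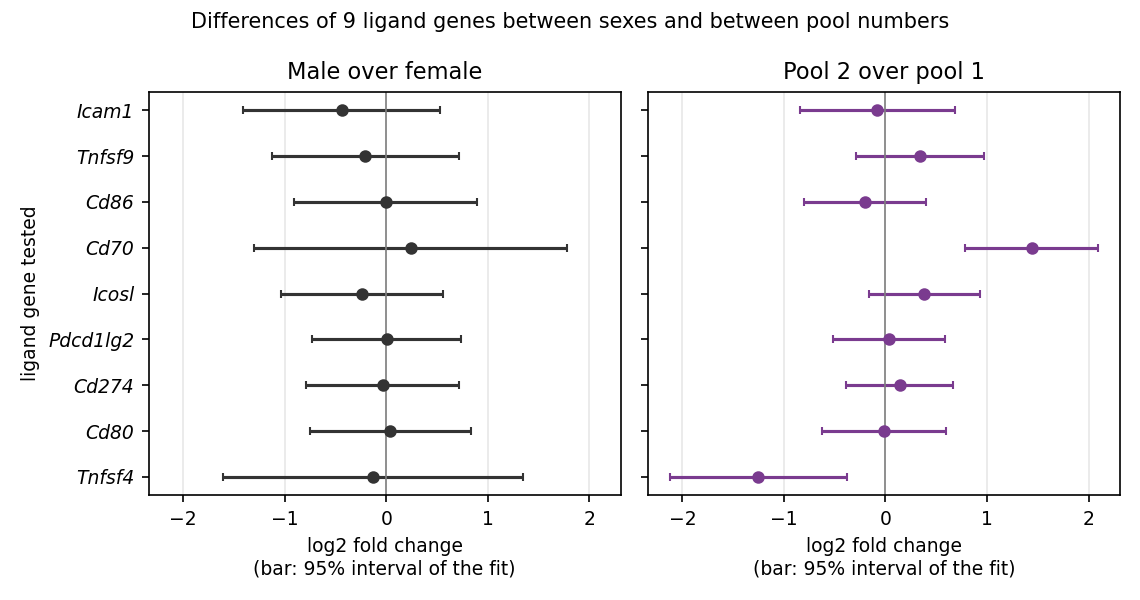
Log2 fold change of the 9 tested ligand genes, male over female (left) and pool 2 over pool 1 (right), with bars for the 95% interval of the fit. Every interval on the left crosses 0, and on the right those of Cd70 (0.78 to 2.10) and Tnfsf4 (-2.13 to -0.38) do not.

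Both sexes had a pool 1 and a pool 2, and the same test with the pool number in place of sex estimated a shift shared by the sexes. Differences that go opposite ways in the sexes cancel in it. For Cd80 the log2 difference was -0.44 in females and 0.36 in males, and the fit gave -0.015. Cd70 was the 1 member of 9 that passed in the higher direction, against 1.86% of all genes tested, and 0 members passed in the lower direction, against 0.175%. Cd70 was 2.71-fold higher in pool 2, a log2 fold change of 1.44 with a standard error of 0.29 and an adjusted p of 0.0475 in edgeR's quasi-likelihood test. Within a sex the log2 difference was 0.93 in females and 1.87 in males. The call was close to the threshold. It was lost with library size only as the scaling (adjusted p = 0.0655), without male pool 1 (adjusted p = 0.215) and without male pool 2 (adjusted p = 0.0572), and the adjusted p over the edgeR and DESeq2 alternatives ran from 0.000234 to 0.215.

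Tnfsf4 had the opposite difference and did not pass. Its log2 fold change, pool 2 over pool 1, was -1.25 with a standard error of 0.39, and the adjusted p was 0.105 in edgeR's quasi-likelihood test. The log2 difference was -0.94 in females and -1.59 in males. Alternatives moved its adjusted p from 0.0254 to 0.379, and it passed with library size only (0.0327), with no filter on low counts (0.0254), with the exact test (0.0409) and without female pool 2 (0.0351).

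The other 7 ligands had log2 fold changes between pool numbers from -0.20 for Cd86 to 0.38 for Icosl, and adjusted p-values from 0.375 to 0.978 by edgeR's quasi-likelihood test. Icosl and Tnfsf9, like Cd70, had both pools numbered 2 above both pools numbered 1, as did 26.5% of all genes tested. Cd86 and Tnfsf4 had them below, as did 29% of all genes. Icosl had log2 differences of 0.26 in females and 0.52 in males. Tnfsf9 had 0.00 in females and 0.73 in males, so its female pools were nearly equal and male pool 1 was the low value.

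The marker lists of the cell types that such a sort could hold were read beside these values. Of the 8 macrophage and monocyte markers, 8 had a positive log2 fold change and 2 passed, C1qa (1.97) and C1qb (1.93), components of complement. The summed level of that list was 2027 and 1455 normalized CPM in the pools numbered 1 and 4274 and 5742 in those numbered 2, and none of its genes was at 0 in all pools. Of the 7 B cell markers tested, 7 had a negative log2 fold change and 0 passed, and the list summed to 4571 and 3776 in pools numbered 1 and 3015 and 2514 in pools numbered 2. The 8 dendritic cell markers were mixed, with 3 positive and 5 negative and 0 that passed. They summed to 3088 and 2553 in pools numbered 1 and 2400 and 1906 in pools numbered 2. Of the 7 thymocyte and T cell markers tested, 3 were positive and 4 negative with a median log2 fold change of -1.34 and 0 that passed, and the list summed to 359 and 936 in pools numbered 1 and 299 and 382 in pools numbered 2. The 7 mTEC markers tested were all positive with 0 that passed, and they summed to 90.2 and 111 in pools numbered 1 and 150 and 149 in pools numbered 2. Epithelial markers summed to 373 and 409 in pools numbered 1 and 644 and 612 in pools numbered 2, with 7 of 8 positive and 0 that passed. Of the 5 cortical TEC markers tested, 4 were positive and 1 passed, the thymic epithelial gene Tbata (1.58). Only 2 endothelial and 2 fibroblast markers had enough reads to be tested, 0 passed, the sums ran from 18.1 to 29.6 and from 12.8 to 79.3, and the endothelial gene Emcn was at 0 in all pools. The part of these cell types in the values of Cd70 and Tnfsf4 was not tested.

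The list genes whose pattern over the 4 pools lay nearest to each ligand were found by the root mean square difference of centred log2 values, among 80 genes of the marker and costimulation lists. For Cd70 the nearest was Lyz2, which encodes lysozyme of myeloid cells, at 0.06, and only 6 of all tested genes were as near. Lyz2 had 1161 and 2397 normalized CPM in the female pools, against 841 and 3327 in the male pools, and its log2 fold change between pool numbers was 1.52 with an adjusted p of 0.0720 in edgeR's quasi-likelihood test. Per length, Cd70 was 0.0219 and 0.0203 of Lyz2 in the female pools, against 0.0226 and 0.0209 in the male pools, a ratio that stayed within a factor of 1.11 while Cd70 itself ranged 3.67-fold. Lyz2 was picked for its nearness over these same pools, so the narrow ratio restates that choice and adds no further evidence. The second nearest was Tnfsf8, the CD30 ligand of the same family, at 0.08.

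For Tnfsf4 the nearest list gene was Ms4a1, which encodes the B cell antigen CD20, at 0.16, with 75 tested genes as near. Ms4a1 had 477 and 234 normalized CPM in the female pools, against 391 and 178 in the male pools, and the per-length ratio of Tnfsf4 to Ms4a1 ran from 0.0341 to 0.0469. Icosl, Cd274 and Tnfsf9 lay nearest to Cd14, a receptor for bacterial lipopolysaccharide, at 0.08, 0.09 and 0.12, with 56, 163 and 96 tested genes as near. Cd80 lay nearest to H2-Aa, an MHCII chain, at 0.10, and Cd86 to Ly75 at 0.11. Pdcd1lg2 lay nearest to Lgals9 at 0.07 and Icam1 to Kdr at 0.16. For these 4 ligands, 115 to 733 tested genes were as near. Cd86 lay 0.107 from Ly75 but only 0.101 from a line flat over the 4 pools. Its nearness to Ly75 thus shows no shared pattern. These likenesses describe 4 libraries and carry no test, and a steady ratio to a gene picked as nearest follows from the picking.

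**Figure D3:**
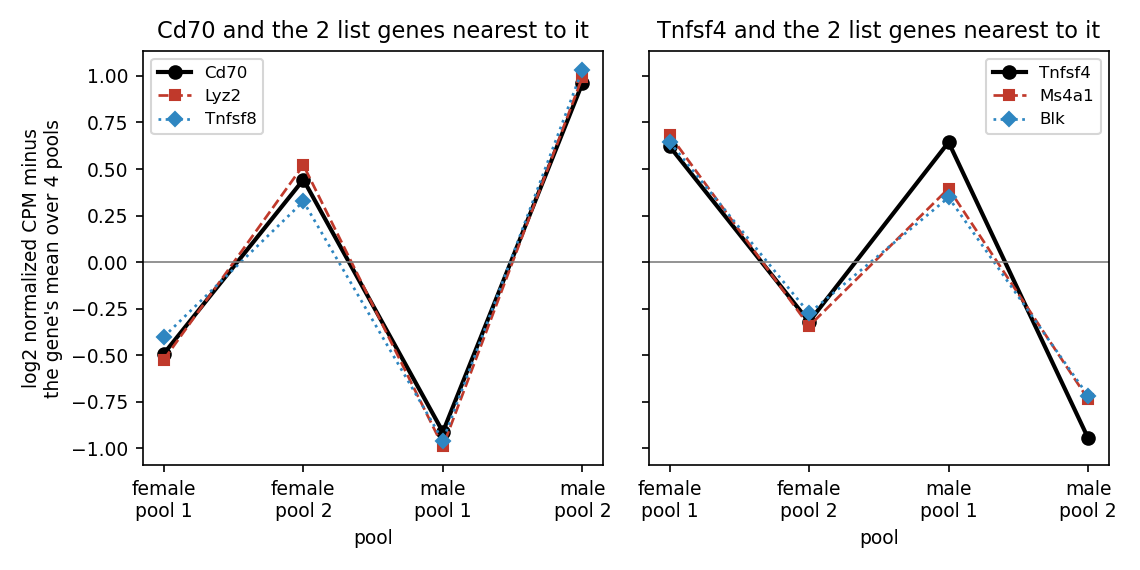
Log2 normalized CPM minus the gene's mean over the 4 pools, for Cd70 with Lyz2 and Tnfsf8 (left) and for Tnfsf4 with Ms4a1 and Blk (right), with lines that only join the points of a gene. Cd70 and both list genes are lowest in male pool 1 and highest in male pool 2, and Tnfsf4 and both list genes are low in the pools numbered 2.

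Against Aire, which marks mature mTECs, the B7 ligands were not constant. The per-length ratio of Cd86 to Aire was 16.2 and 8.44 in the female pools, against 15.5 and 9.38 in the male pools, and that of Cd80 to Aire was 2.60 and 1.17 in the female pools, against 2.01 and 1.76 in the male pools. Aire itself was at 19.3 and 31.7 normalized CPM in the female pools, against 19.7 and 28.9 in the male pools, with an adjusted p of 0.164 between pool numbers in edgeR's quasi-likelihood test. The ratio of Cd86 to Ptprc ran from 1.53 to 2.26. The ratio of Cd80 to H2-Aa stayed within a factor of 1.18. H2-Aa was picked as the list gene nearest to Cd80 over these same pools and Aire was not. The 2 ratios are therefore not comparable.

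The receptors and relatives of these ligands were taken from a list of 26 further costimulation genes, of which 21 were tested and 0 passed in either comparison. Between the sexes 15 of the 21 were positive and 6 negative, with a median log2 fold change of 0.13, and between pool numbers 12 were positive and 9 negative, with a median of 0.08 beside -0.03 for all genes. Among receptors of the CD28 family the most abundant were Btla, with 47.0 and 61.4 normalized CPM in the female pools, against 57.3 and 78.9 in the male pools, and Ctla4, with 35.1 and 22.8 in the female pools, against 37.3 and 16.9 in the male pools. Of the receptors bound by the TNF family ligands and ICAM-1, Itgb2, a chain of LFA-1, had a mean of 185 normalized CPM and Tnfrsf4, the OX40 receptor, a mean of 149. Tnfrsf4 had 90.8 and 153 in the female pools, against 106 and 245 in the male pools, with both pools numbered 2 above both numbered 1, while its ligand gene Tnfsf4 had them below.

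Cd27, the receptor of CD70, and Cd28 are named here after their values were seen. Cd27 had 10.1 and 4.95 normalized CPM in the female pools, against 42.9 and 4.62 in the male pools, and Cd28 had 5.71 and 2.47 in the female pools, against 24.6 and 2.70 in the male pools. Male pool 1 was the high value for each. The summed level of the 8 thymocyte and T cell markers was also highest there, at 936 against 299 to 382 in the other pools. Of its 7 tested markers 0 passed, and they did not share one pattern. Cd3d, Cd3e, Cd3g and Lck were highest in male pool 1. Cd4, Cd8a and Ptcra were highest in male pool 2, at 79.7, 153 and 13.1 against 48.1, 144 and 7.29 in male pool 1. The part of such cells in the values of Cd27 and Cd28 was not tested. Their log2 fold changes between pool numbers were -2.52 for Cd27 and -2.60 for Cd28, with adjusted p-values of 0.0716 and 0.0816 by edgeR's quasi-likelihood test.

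Among the other B7 and immunoglobulin family ligands the most abundant were Cd48, with a mean of 217 normalized CPM, and Vcam1, the ligand of the integrin VLA-4, with 111 and 142 in the female pools, against 75.6 and 176 in the male pools. Cd40, the receptor through which T cells signal back to the presenting cell, had 368 and 383 in the female pools, against 300 and 341 in the male pools, and Lgals9 had a mean of 301. Vtcn1, the gene of the inhibitory ligand B7-H4, had 0 reads in every pool.

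**Figure D4:**
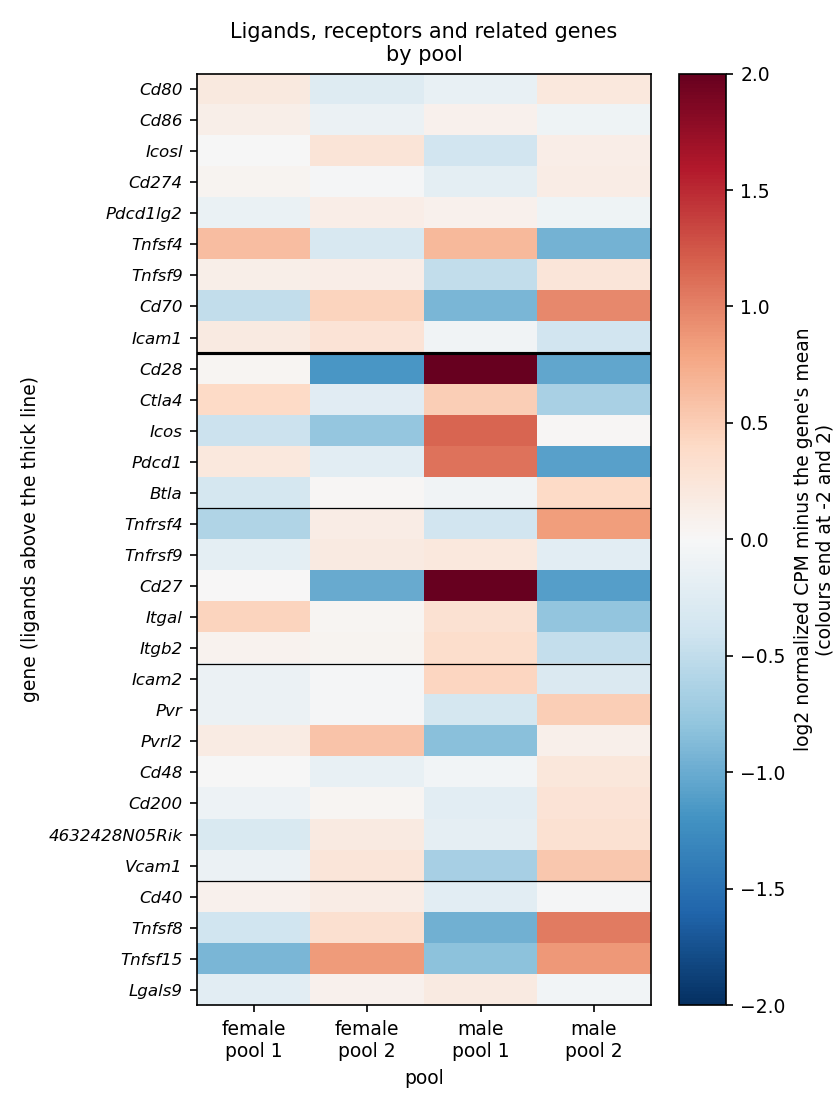
Log2 normalized CPM minus the gene's mean over the 4 pools for the 9 tested ligands (above the thick line) and 21 further costimulation genes (rows, grouped by family), with red above and blue below the gene's mean and colours that end at -2 and 2. Cd70 is red in both pools numbered 2 and Tnfsf4 is red in both pools numbered 1, most other ligands are pale, and Cd28 and Cd27 are darkest in male pool 1.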

How the data were processed

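The authors removed low-quality reads with Trimmomatic, aligned to mm9 with TopHat2 and deposited raw read counts per gene made with HTSeq. Versions, annotation and strand setting of the counting were not given in the sources used here. Rows for unassigned reads, 66.9% to 70.2% of a pool's total, stayed out of library sizes and tests.

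Counts were analysed in R 4.3.3 with edgeR 4.0.16 (quasi-likelihood test, TMM, filterByExpr with a minimum count of 10, prior count of 0.125, Benjamini-Hochberg over all genes tested at 0.05, two-sided), with sex or pool number as the only term. Standard errors were derived from the F statistic and the log2 fold change. Scripts were tested on simulated data. Figures were drawn with Python 3.11.15 and matplotlib 3.10.9. Alternatives were upper-quartile scaling, library size only, no filter, over 1 CPM in at least 2 pools, DESeq2 1.42.0, the exact test, a prior count of 2, the replicate block, each pool left out, and transcript length. A check for a library deposited under 2 labels found none (chi-square per degree of freedom between pools from 10.1 to 89.9).

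The members, lists and tests were chosen with earlier results of these data known. Genes outside the members were named by abundance within their list, by nearness to a member, or as said in the text. The pools are the study's biologic replicates. The p-values measure only the spread between pools of a group, estimated partly from other genes. In the test of pool number that spread includes the difference between the sexes.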

Additional observations from a re-analysis of the deposited data

Results flagged for a closer look

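For 4 ligands the pools of the 2 sexes moved in opposite directions between pool numbers. The log2 difference of normalized CPM, pool 2 over pool 1, was -0.44 in females and 0.36 in males for Cd80, and -0.073 in females and 0.35 in males for Cd274. It was 0.27 in females and -0.18 in males for Pdcd1lg2, and 0.088 in females and -0.31 in males for Icam1. Each value compares 1 pool with 1 pool, and the difference between the sexes was not tested. None of these 4 genes passed either comparison.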

How the results depend on the processing

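Between the sexes, 0 ligands passed under every alternative run, while the number of all genes passed was 0 in the analysis reported, 26 with no filter, 5 with library size only, 3 with DESeq2, 8 with the exact test and 17 with the replicate block, and 0 to 631 with 1 pool left out (631 without male pool 1, 52 without male pool 2). Between pool numbers, 221 genes passed (202 higher and 19 lower), 1504 with no filter, 764 with library size only (376 and 388), 651 with DESeq2, 1138 with the exact test and 807 with sex as an added term, and 170 to 2810 with 1 pool left out (362 without female pool 1, 2810 without female pool 2, 170 without male pool 1 and 451 without male pool 2). Of the ligands, 1 passed, 2 with no filter and with the exact test, and 0 to 2 with 1 pool left out (2 without female pool 2, 0 without male pool 1 and 0 without male pool 2). Library size only moved the median log2 fold change of all genes between pool numbers to -0.35. Relative to it Cd70 was at 1.44 and Tnfsf4 at -1.22. The cause of these changes was not tested.

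Signs that turned, male over female, were those of Pdcd1lg2 (-0.012 with upper-quartile scaling, -0.058 with library size only, -0.0058 with over 1 CPM), Cd80 (-0.071 with library size only) and Cd86 (0.0073 with DESeq2). Pool 2 over pool 1, they were Cd274 (-0.18) and Pdcd1lg2 (-0.28) with library size only, Pdcd1lg2 (-0.034) with no filter and Cd80 (0.015) with DESeq2. With 1 pool left out, male over female ran from -0.14 to 0.29 for Cd80, -0.10 to 0.11 for Cd86, -0.50 to 0.0096 for Icosl, -0.21 to 0.13 for Cd274, -0.13 to 0.16 for Pdcd1lg2, -1.21 to 0.43 for Tnfsf4, -0.60 to 0.12 for Tnfsf9 and -0.91 to 0.95 for Cd70, and pool 2 over pool 1 from -0.27 to 0.23 for Cd80, -0.065 to 0.15 for Pdcd1lg2 and -0.40 to 0.20 for Icam1. A lone pool was assumed to vary like the others. With the longest transcript, the per-length level of Cd80 moved to 15.04 and of Cd86 to 111.

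The pool numbers were shared by 2 pairs only. Differences of pool 2 from pool 1 correlated between the sexes at 0.51 across 10865 genes, which are not independent replicates, and the labels do not say that a number marks a shared day, so the numbers were not used as pairs. The block changed no call of a ligand. Depth limits Cd276 and Tnfsf4, and 2 pools per sex limit every interval.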
